A study of Homo sapiens with 8 samples.

Results

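The 45 genes described here encode nuclear receptors. They were taken from a fixed list of symbols, all 45 of which were found among the 19974 protein-coding genes of chromosomes 1 to 22 and X. For every gene, 2 numbers were counted in each sample's ATAC-seq peak list: boundary peaks, which overlap a window of 1 kb on either side of either end of the gene, and surrounding peaks, which lie elsewhere in the gene body or within 50 kb of it on GRCh38. ATAC-seq marks open chromatin through the insertion of adapters by a transposase. The samples were H1975 and HCC44, established human lung cancer lines that the labels give as genotype WT. Cells in 10 cm dishes received DMSO, the solvent, or ACBI1, a degrader of the SWI/SNF (BAF) chromatin remodelling ATPases SMARCA2 and SMARCA4 and of the subunit PBRM1, for 96 h. The labelled dose is 1 mM and is repeated only as labelled. Each of the 4 groups (H1975 DMSO, H1975 ACBI1, HCC44 DMSO, HCC44 ACBI1) had 2 replicates. The labels do not say that replicates were separate cultures, so the p-values measure only the spread between these samples.

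Nuclear receptors are transcription factors, most of which carry a zinc finger DNA-binding domain and a ligand-binding domain that accepts steroids, thyroid hormone, retinoids, vitamin D, fatty acids, oxysterols or bile acids. Many bind DNA as heterodimers with a retinoid X receptor, and they recruit coactivators or corepressors that act on chromatin. Orphan members have no established hormone. In lung, the glucocorticoid receptor and the retinoic acid receptors are known for their parts in alveolar development, and NR2F factors for theirs in vessel and airway patterning.

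The sequences below are the 250 bases before 7 transcription starts, chosen because the results turn on them: starts with a peak in only 1 line (RARB, RARA, NR2F1), starts whose peak was missing after ACBI1 in HCC44 (PPARG, RXRA), and starts with a peak in all 8 samples although the peaks around the gene fell (NR3C1, THRB). They were read from RefSeq windows on GRCh38.p14, which gave starts for 40 of the 45 receptors. Capitals mark matches to any of 6 motifs searched on both strands: AGGTCA, the nuclear receptor half-site; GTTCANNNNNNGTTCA, a direct repeat of the kind bound by retinoic acid receptors; TGANTCA, the AP-1 motif; TGACGTCA, the cyclic AMP element; CCAAT, bound by NF-Y; and CACGTG, the E-box. None contains another in its fixed letters.
RARB, start 3: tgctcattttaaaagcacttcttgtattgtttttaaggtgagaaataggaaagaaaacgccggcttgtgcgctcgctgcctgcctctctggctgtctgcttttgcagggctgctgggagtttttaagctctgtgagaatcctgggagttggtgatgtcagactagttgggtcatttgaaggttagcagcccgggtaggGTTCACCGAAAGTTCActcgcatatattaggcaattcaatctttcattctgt
RARA, start 1: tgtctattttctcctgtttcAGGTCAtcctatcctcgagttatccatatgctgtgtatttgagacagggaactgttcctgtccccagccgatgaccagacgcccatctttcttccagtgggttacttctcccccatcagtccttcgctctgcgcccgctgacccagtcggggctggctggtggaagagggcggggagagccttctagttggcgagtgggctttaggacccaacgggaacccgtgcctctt
NR2F1, start 1: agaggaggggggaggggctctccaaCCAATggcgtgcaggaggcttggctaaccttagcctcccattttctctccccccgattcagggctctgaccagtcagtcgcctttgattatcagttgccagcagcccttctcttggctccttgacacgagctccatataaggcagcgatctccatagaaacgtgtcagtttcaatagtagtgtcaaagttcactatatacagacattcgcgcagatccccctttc
PPARG, start 3: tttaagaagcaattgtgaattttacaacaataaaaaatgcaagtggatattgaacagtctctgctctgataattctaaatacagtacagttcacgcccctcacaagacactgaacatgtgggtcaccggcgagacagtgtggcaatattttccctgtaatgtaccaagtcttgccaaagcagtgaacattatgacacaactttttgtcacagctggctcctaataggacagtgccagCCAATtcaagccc
RXRA, start 1: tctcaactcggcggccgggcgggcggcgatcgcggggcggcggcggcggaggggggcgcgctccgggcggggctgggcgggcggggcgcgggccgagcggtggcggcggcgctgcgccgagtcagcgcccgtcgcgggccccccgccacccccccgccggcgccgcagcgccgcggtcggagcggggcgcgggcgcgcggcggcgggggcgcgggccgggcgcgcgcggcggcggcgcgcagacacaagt
NR3C1, start 2: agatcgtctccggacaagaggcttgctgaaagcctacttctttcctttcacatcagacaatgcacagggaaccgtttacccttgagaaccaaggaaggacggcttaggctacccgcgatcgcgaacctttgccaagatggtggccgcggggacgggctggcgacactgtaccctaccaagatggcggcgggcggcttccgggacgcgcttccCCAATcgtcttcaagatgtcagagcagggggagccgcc
THRB, start 1: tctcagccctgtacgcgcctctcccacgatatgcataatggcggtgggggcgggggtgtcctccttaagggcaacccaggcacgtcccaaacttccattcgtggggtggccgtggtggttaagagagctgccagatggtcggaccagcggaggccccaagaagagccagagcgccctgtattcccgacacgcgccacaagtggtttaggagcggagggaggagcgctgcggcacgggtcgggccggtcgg

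The RARB stretch lies at chr3:25428013-25428262 on the plus strand and holds GTTCACCGAAAGTTCA at 52 to 37 bases before the start. These letters are the retinoic acid element known from the promoter of the RARB2 transcript. The repeat was in 10 of 22132 start windows of all genes (0.0452%), each window running from 250 bases before to 50 after a start. RARB's stretch was covered by a peak over 175 and 222 bases in the HCC44 DMSO samples and over 167 and 121 bases in the HCC44 ACBI1 samples, and over 0 bases in all 4 H1975 samples. HCC44 alone therefore had a listed peak at this start, with either treatment.

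RARA's stretch (chr17:40308930-40309179, plus strand) holds AGGTCA, which 11.9% of all start windows and 17.0% of the 94 receptor windows held. It too was covered only in HCC44, over 68 and 86 bases with DMSO and all 250 bases in both ACBI1 samples. NR2F1's stretch (chr5:93582972-93583221, plus strand) holds CCAAT and showed the reverse: 228 and 183 bases were covered in H1975 DMSO, 230 in each H1975 ACBI1 sample, and 0 in HCC44. CCAAT was in 34.6% of all windows and 34.0% of receptor windows. RARA's other starts, at chr17:40318245 and chr17:40342166, had a peak within 1 kb in all 8 samples. Among RARA's starts, H1975 thus lacked a peak only at the printed one.

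PPARG's stretch (chr3:12351167-12351416, plus strand) also holds CCAAT, 13 to 9 bases before the start. It was covered over 239 and 229 bases in HCC44 DMSO and over 0 bases in the other 6 samples. RXRA's stretch (chr9:134326205-134326454, plus strand) holds none of the 6 motifs; 89.2% of its bases are G or C and it has 59 CpG dinucleotides. A peak covered it only in HCC44 DMSO replicate 2. NR3C1's stretch (chr5:143405356-143405605, minus strand) holds CCAAT and THRB's (chr3:24495709-24495958, minus strand) none of the motifs. Each was covered over at least 109 bases in every sample. A match is a description of letters, and its absence says only that they are not in this window. TGANTCA was in 5.32% of receptor windows and 6.15% of all windows, TGACGTCA in 2.13% and 2.26%, and CACGTG in 9.57% and 8.34%.

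Over all genes, the lists on chromosomes 1 to 22 and X held 43504 and 41003 peaks in H1975 DMSO, 27659 and 22115 in H1975 ACBI1, 50323 and 49921 in HCC44 DMSO, and 26295 and 24847 in HCC44 ACBI1. ACBI1 lists were thus shorter than DMSO lists in both lines. For this reason most counts of receptors below are set beside the same counts over all genes. The 2 H1975 ACBI1 lists differed the most in length. The number of reads is unknown, and a missing peak is not a measurement of closed chromatin. In these bulk samples, fewer cells with an open site and a weaker signal per cell cannot be told apart. The epithelial genes EPCAM, KRT8, KRT18 and KRT7 and the lung gene NAPSA had a boundary peak in 8 of 8 samples, CDH1 in 7, the lung factor NKX2-1 in 5 and SFTPB in 2. Among markers of other cell types, COL1A1 had one in 8 and CD3E in 3, and PTPRC, PECAM1, CDH5 and DCN had 0.

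ACBI1 was accompanied by fewer peaks around many receptor genes in both lines, while the peaks at the ends of the genes mostly stayed. PPARG, THRB, ESR1, RXRA and NR3C1, receptors for fatty acid ligands, thyroid hormone, estrogen, rexinoids and glucocorticoids, were among those with the largest falls. The 45 windows together held 229 and 217 distinct surrounding peaks in H1975 DMSO and 156 and 120 in H1975 ACBI1, a log2 change of −0.70 with an SD between replicates of 0.193. In HCC44 they held 265 and 260 with DMSO and 153 and 137 with ACBI1, a log2 change of −0.86 with an SD of 0.0809. Neither line's groups overlapped. When every list was limited to its 22115 peaks of highest −log10 q, these changes became 0.09 and 0.07. Boundary peaks numbered 28 and 31 against 29 and 27 in H1975, and 34 and 31 against 30 and 31 in HCC44. These groups overlapped in H1975 and touched in HCC44. Their log2 changes were −0.07 and −0.09, beside −0.07 and −0.14 over all genes. For surrounding peaks, sums over all genes are given below for peaks at no gene end.

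**Figure D1:**
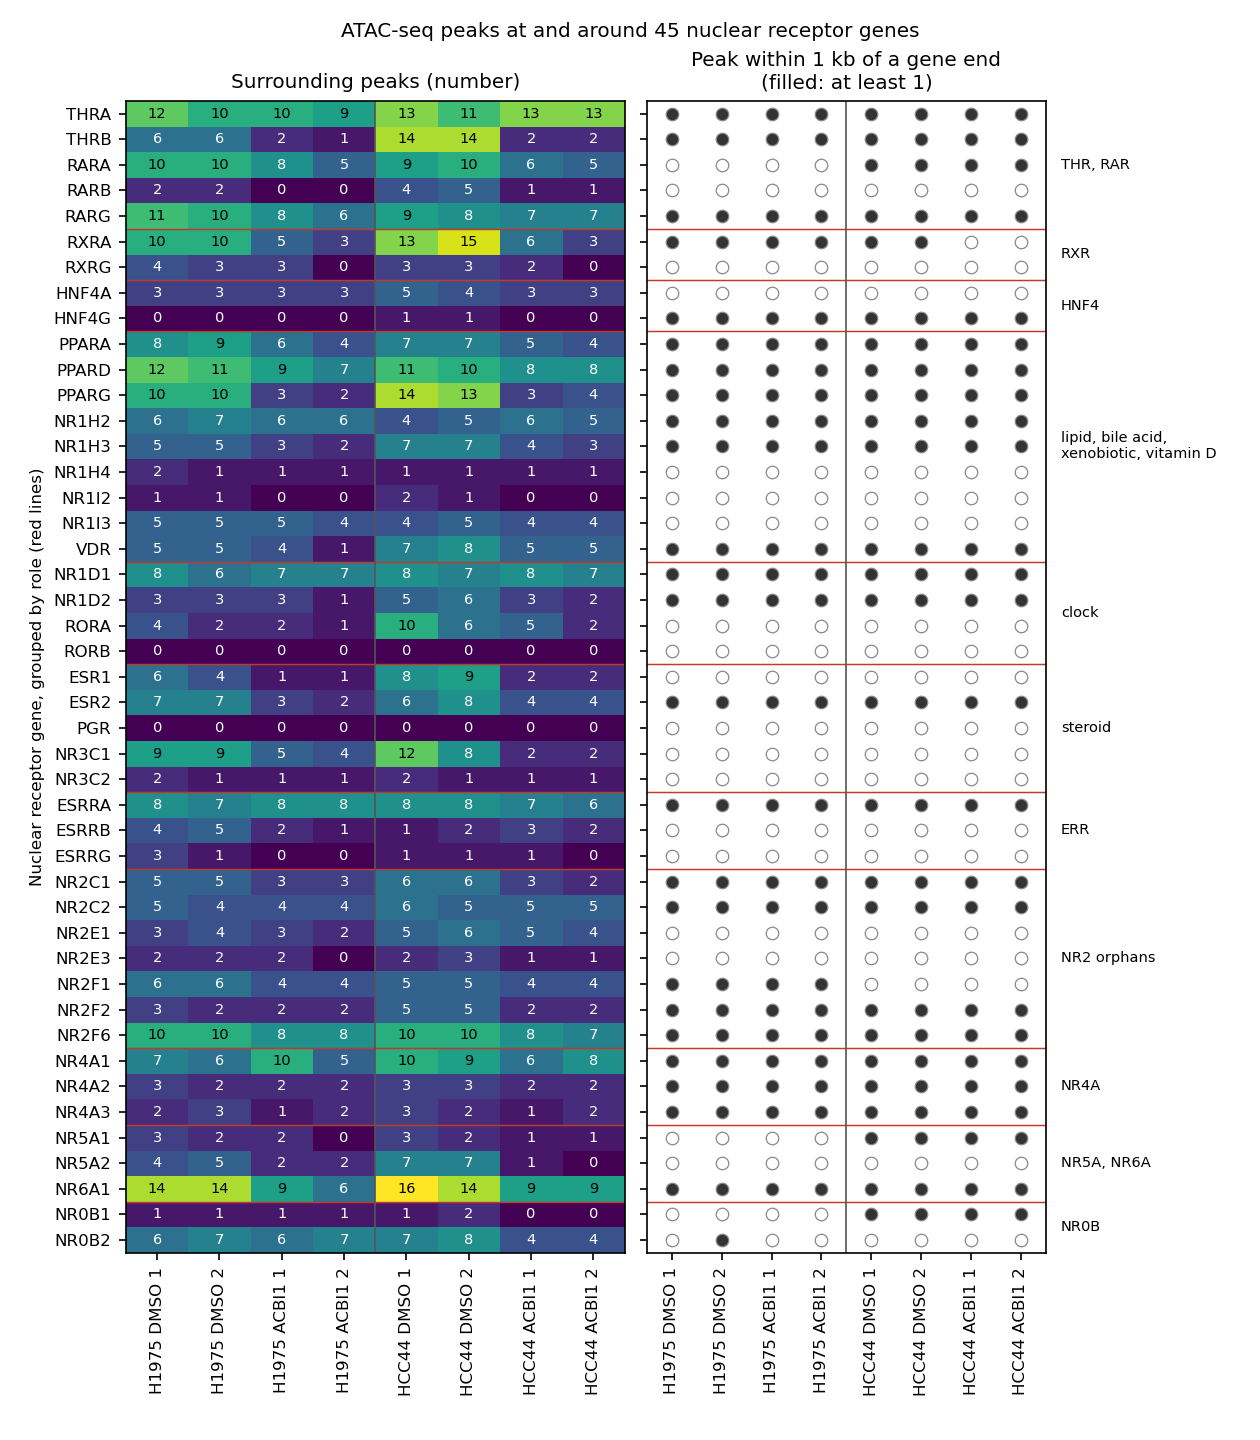
The left panel gives the number of surrounding peaks of each of the 45 receptor genes (rows, grouped by role) in each of the 8 samples (columns), with colour and digits; the right panel shows, as filled circles, where at least 1 boundary peak was listed. Columns of ACBI1 samples are darker than those of DMSO samples for THRB, RXRA, PPARG and NR6A1, whereas most filled circles run across all 8 samples.

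A mean of at least 2 surrounding peaks over the 8 samples was the condition for a test, and 34 of the 45 receptors met it. The test was limma on log2(peaks + 1), fitted over the 12696 genes that met it. A receptor is called when its adjusted p (Benjamini-Hochberg over all 12696 genes) was under 0.05. In H1975, 15 of the 34 were called lower with ACBI1 (44.1%) and 0 higher, against 29.5% lower and 0.110% higher over all genes tested; the median log2 change was −0.52 for the receptors and −0.37 for all genes. In HCC44, 16 were called lower (47.1%) and 0 higher, against 43.1% and 0.165%, with medians of −0.52 and −0.50. The HCC44 share lay near that of all genes, and no test compared the receptors with other genes. Called lower in both lines were 11: THRB, RARA, RXRA, PPARA, PPARG, NR1H3, ESR1, ESR2, NR3C1, NR5A2 and NR6A1. Neither line gave a call for 14: THRA, RXRG, HNF4A, NR1H2, NR1I3, NR1D1, ESRRA, NR2C2, NR2E1, NR2F1, NR2F6, NR4A1, NR4A2 and NR4A3. Over all 12696 genes tested, 2907 were called lower in both lines and 6386 in neither. The 11 not tested were RARB, HNF4G, NR1H4, NR1I2, RORB, PGR, NR3C2, ESRRG, NR2E3, NR5A1 and NR0B1.

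The fall around receptors came with one over all genes. When each sample's log2 values were centred on the median over all genes tested, 4 receptors were called lower in H1975 (ESR1, ESR2, PPARG and THRB) and 0 higher, beside 7.93% of genes lower and 2.16% higher. In HCC44, 6 were called lower (ESR1, NR3C1, NR5A2, PPARG, RXRA and THRB) and 11 higher, beside 8.84% lower and 29.5% higher. RARA, PPARA, ESR2, NR6A1 and NR0B2, called lower in HCC44 as counted, then had changes above 0 without a call (0.11, 0.26, 0.14, 0.13 and 0.04). With an equal number of top peaks from every list, 26 receptors and 9226 genes were tested. Then 2 receptors were called lower and 6 higher in H1975, against 5.34% and 16.3% of genes, and 5 lower and 5 higher in HCC44, against 9.13% and 24.5%. With limma's default prior, the fit first planned, 12 receptors were called lower in H1975 (32.4% of genes) and 15 in HCC44 (47.1%). It gave no call for RARA, RXRA, PPARA, VDR, ESRRB and NR5A2 in H1975 and for RARA, PPARA, NR1D2 and RORA in HCC44, and added NR2C1, NR2F1 and NR2F6 in H1975 and HNF4A, NR2F1 and NR2F6 in HCC44. PPARG was called lower in both lines under all 21 alternatives run, and in HCC44 so were THRB and RXRA in 21 of 21 and ESR1 and NR5A2 in 20 of the 20 that tested them. Leaving out 1 sample gave 10 to 20 receptors called lower in H1975, beside 2420 to 5790 of the 12696 genes, and 13 to 21 in HCC44, beside 4385 to 7188. H1975 calls ended for RARA, RARG, PPARD, NR1H3 and NR5A2 without DMSO replicate 1, for RARA, PPARA, ESRRB and NR5A2 without DMSO replicate 2, and for RARA, RARG, PPARA, PPARD and VDR without ACBI1 replicate 2. HCC44 calls ended for PPARA and RORA without DMSO replicate 1, for PPARA, NR1D2 and ESR2 without DMSO replicate 2, and for PPARA, NR1D2 and RORA without ACBI1 replicate 2.

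**Figure D2:**
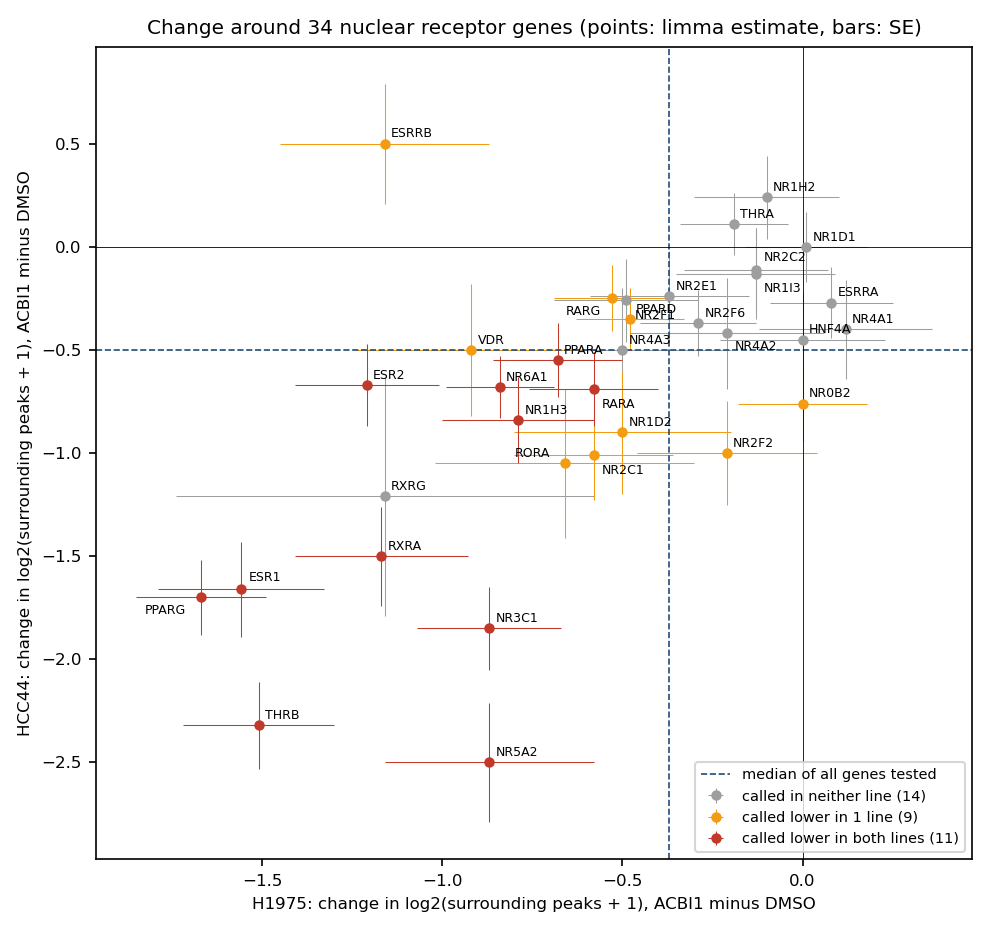
Each point is 1 of the 34 receptors tested, with its limma change in log2(surrounding peaks + 1) in H1975 on the horizontal and in HCC44 on the vertical axis; bars are SEs and dashed lines the medians of all genes tested (−0.37 and −0.50). PPARG, ESR1 and THRB lie below −1.50 in both lines, and ESRRB is the point that lies low in H1975 and above 0 in HCC44.

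Counted without a model, 21 of the 45 receptors (46.7%) had fewer surrounding peaks in both H1975 ACBI1 samples than in either DMSO sample, against 43.0% of the 19974 genes. In HCC44 this held for 32 (71.1%) against 54.5%. The reverse order was found for 0 receptors in either line, against 1.38% and 1.85% of genes. Over both lines, 19 receptors (42.2%) and 33.8% of all genes reached the smallest two-sided p that an exact permutation test within lines can give, 0.0556; within 1 line the smallest is 0.333, so no such test can pass 0.05.

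Thyroid hormone receptor genes differed from each other. THRB (gene ID 7068, chr3:24117153-24495708) had 6 and 6 surrounding peaks in H1975 DMSO and 2 and 1 in H1975 ACBI1, a log2 change of −1.51 (SE 0.21, limma adjusted p 0.000814). Its HCC44 counts were 14 and 14 under DMSO but 2 and 2 under ACBI1, a change of −2.32 (SE 0.21, limma adjusted p 4.85e-05). The groups were apart in both lines, and relative to the median of all genes the changes were −1.15 and −1.82. With equal numbers of top peaks THRB was called higher in H1975 (1.00). THRA (chr17:40062193-40093867), whose product is the other thyroid hormone receptor, had 12, 10, 10 and 9 in H1975 and 13, 11, 13 and 13 in HCC44, with DMSO samples first. Its groups overlapped or touched in both lines, with changes of −0.19 (SE 0.15) and 0.11 (SE 0.15).

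Retinoic acid receptors bind all-trans retinoic acid. RARA (gene ID 5914, chr17:40309180-40357643) had 10 and 10 peaks against 8 and 5 in H1975 (DMSO before ACBI1, here and below), and 9 and 10 against 6 and 5 in HCC44. Its changes were −0.58 (SE 0.18) and −0.69 (SE 0.18). RARG (chr12:53210569-53232209) had 11 and 10 against 8 and 6 in H1975, where it was called (−0.53, SE 0.16), and 9 and 8 against 7 and 7 in HCC44, where it was not (−0.25, SE 0.16, limma adjusted p 0.228). Around RARB (chr3:24829321-25597932) there were only 2 and 2 against 0 and 0 in H1975 and 4 and 5 against 1 and 1 in HCC44. DMSO and ACBI1 samples did not overlap for any of these 3 genes in either line, yet RARB was under the level tested. The H1975 call of RARA held in 10 of 20 alternatives and that of RARG in 13 of 21, and the HCC44 call of RARA in 15 of 20.

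RXRA (gene ID 6256, chr9:134326455-134440585), the common partner of the heterodimeric receptors, had 10 and 10 surrounding peaks in H1975 DMSO and 5 and 3 in H1975 ACBI1, a change of −1.17 (SE 0.24, limma adjusted p 0.00552). The HCC44 counts were 13 and 15 under DMSO but 6 and 3 under ACBI1, a change of −1.50 (SE 0.24, limma adjusted p 0.000828). Both lines' groups were well apart. The H1975 call was lost on centring (−0.74, limma adjusted p 0.0633), with equal top peaks (−0.16), with a minimum fold enrichment of 5 (limma adjusted p 0.124) and with limma's default prior (adjusted p 0.0568). RXRG (chr1:165400922-165445126), which is expressed mainly in muscle and brain, had 4, 3, 3 and 0 in H1975 and 3, 3, 2 and 0 in HCC44. Its ACBI1 replicates lay far apart, and neither change (−1.16 and −1.21, both SE 0.58) was called.

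PPARG (gene ID 5468, chr3:12287368-12434344), the adipogenic fatty acid receptor, showed the most stable fall. It had 10 and 10 peaks in H1975 DMSO and 3 and 2 in H1975 ACBI1, a change of −1.67 (SE 0.18, limma adjusted p 0.000358). In HCC44 it had 14 and 13 against 3 and 4, a change of −1.70 (SE 0.18, limma adjusted p 9.15e-05). No DMSO sample came near an ACBI1 sample, and relative to all genes the changes were −1.30 and −1.20. Its relatives moved less. PPARA (chr22:46150526-46243756), the receptor for fatty acid oxidation genes, had 8 and 9 against 6 and 4 in H1975 and 7 and 7 against 5 and 4 in HCC44, with changes of −0.68 (SE 0.18) and −0.55 (SE 0.18). PPARD (chr6:35342558-35428178) had 12 and 11 against 9 and 7, and 11 and 10 against 8 and 8, and was called in H1975 only (−0.48, SE 0.15; HCC44 −0.35, limma adjusted p 0.0834). The call of PPARA held in 14 of 21 alternatives in H1975 and 13 of 21 in HCC44, and that of PPARD in 14 of 21. The difference between lines was not called for either gene.

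NR1H3 (chr11:47248300-47269033) and NR1H2 (chr19:50376457-50383388) encode the oxysterol receptors LXR alpha and LXR beta. NR1H3 had 5 and 5 against 3 and 2 peaks in H1975 and 7 and 7 against 4 and 3 in HCC44, and was called lower in both (−0.79, SE 0.21, and −0.84, SE 0.21), calls that held in 14 and 16 of 21 alternatives. NR1H2 had 6, 7, 6 and 6 in H1975 and 4, 5, 6 and 5 in HCC44, with groups that overlapped or touched. VDR (chr12:47841537-47904994), the vitamin D receptor gene, had 5 and 5 against 4 and 1 in H1975 (−0.92, SE 0.32, limma adjusted p 0.0475) and 7 and 8 against 5 and 5 in HCC44 (−0.50, SE 0.32, not called). Its H1975 call held in 14 of 20 alternatives. It was lost without ACBI1 replicate 2 (limma adjusted p 0.374), with a pseudocount of 0.5 (0.0743), in covered kb (0.239), on centring (0.218) and with limma's default prior (0.178). With equal top peaks VDR was called higher instead (1.29, limma adjusted p 0.00163). The bile acid receptor gene NR1H4 (chr12:100473866-100564414) and the xenobiotic receptor gene NR1I2 (chr3:119782101-119818487) had at most 2 peaks in any sample. NR1I3 (chr1:161229669-161238203), the other xenobiotic receptor, had 5, 5, 5 and 4 in H1975 and 4, 5, 4 and 4 in HCC44.

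Among the HNF4 factors, which are endodermal regulators, HNF4A (chr20:44355699-44434596) had 3 in every H1975 sample and 5 and 4 against 3 and 3 in HCC44 (−0.45, SE 0.23, limma adjusted p 0.136). HNF4G had 1 and 1 in HCC44 DMSO and 0 in the other 6 samples. The clock receptors NR1D1 and NR1D2 repress BMAL1 transcription, and RORA and RORB oppose them. NR1D1 (chr17:40092793-40100589) had 8, 6, 7 and 7 in H1975 and 8, 7, 8 and 7 in HCC44; its window overlaps that of THRA, so both count some of the same peaks. NR1D2 (chr3:23945286-23980617) had 3 and 3 against 3 and 1 in H1975 and 5 and 6 against 3 and 2 in HCC44, where it was called (−0.90, SE 0.30). RORA (chr15:60488284-61229302) had 4 and 2 against 2 and 1 in H1975 and 10 and 6 against 5 and 2 in HCC44, where it was called (−1.05, SE 0.36, limma adjusted p 0.0371). The H1975 samples of RORA touched at 2, whereas those of HCC44 were apart. Median centring and limma's default prior each ended both HCC44 calls.

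Steroid receptor genes with enough peaks to test were called lower in both lines. ESR1 (gene ID 2099, chr6:151656672-152129619), which encodes estrogen receptor alpha, had 6 and 4 against 1 and 1 in H1975 (−1.56, SE 0.23, limma adjusted p 0.00102) and 8 and 9 against 2 and 2 in HCC44 (−1.66, SE 0.23, limma adjusted p 0.000362). ESR2 (chr14:64226707-64338613), for estrogen receptor beta, had 7 and 7 against 3 and 2 in H1975 (−1.21, SE 0.20, limma adjusted p 0.00191) and 6 and 8 against 4 and 4 in HCC44 (−0.67, SE 0.20, limma adjusted p 0.0214). Every ACBI1 sample lay under every DMSO sample of its line for both genes. ESR1's H1975 call was lost with a minimum fold enrichment of 5 (limma adjusted p 0.0574). That of ESR2 was lost with the same minimum and in covered kb (limma adjusted p 0.0525 and 0.0591). In HCC44 the ESR2 call was lost in these settings too, with equal top peaks (−0.16) and on centring, where the sign changed (0.14).

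NR3C1 (gene ID 2908, chr5:143277931-143435512), the glucocorticoid receptor gene, had 9 and 9 against 5 and 4 in H1975 (−0.87, SE 0.20, limma adjusted p 0.00776). HCC44 had 12 and 8 against 2 and 2 (−1.85, SE 0.20, limma adjusted p 8.99e-05). The ACBI1 samples were lower in both lines and lowest in HCC44. In H1975 the call was lost on centring (−0.44), with equal top peaks (−0.26) and in covered kb (−0.59, limma adjusted p 0.0677); in HCC44 it was lost with equal top peaks (−0.42, limma adjusted p 0.113). NR3C2 (chr4:148078764-148445322), the mineralocorticoid receptor gene, had 2, 1, 1 and 1 in each line. PGR (chr11:101029624-101129813), for the progesterone receptor, had 0 in all 8 samples at its ends and around it.

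ESRRB (gene ID 2103, chr14:76310777-76501837), an orphan relative of the estrogen receptors known from pluripotent cells, had 4 and 5 against 2 and 1 in H1975 (−1.16, SE 0.29, limma adjusted p 0.012) and 1 and 2 against 3 and 2 in HCC44 (0.50, SE 0.29, limma adjusted p 0.182). Its H1975 groups were apart and its HCC44 groups touched at 2. The H1975 call held in 13 of 17 alternatives and was lost in covered kb (limma adjusted p 0.0821), on centring (0.0987), with limma's default prior (0.0502) and without DMSO replicate 2 (0.0618). ESRRA (chr11:64305524-64316743), an orphan that controls mitochondrial genes, had 8, 7, 8 and 8 and then 8, 8, 7 and 6, with no call. ESRRG (chr1:216503246-217137702) had 3, 1, 0 and 0 in H1975 and 1, 1, 1 and 0 in HCC44.

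Of the 7 NR2C, NR2E and NR2F orphan genes, 0 of the 6 tested were called in H1975 and 2 were called lower in HCC44, where 29.5% and 43.1% of all genes were called lower. NR2C1 (chr12:95020229-95073618), a repressor of embryonic globin genes, had 5 and 5 against 3 and 3 in H1975 (limma adjusted p 0.0706) and 6 and 6 against 3 and 2 in HCC44 (−1.01, SE 0.22, limma adjusted p 0.0044). NR2F2 (chr15:96326046-96340263), which encodes COUP-TFII, had 3, 2, 2 and 2 in H1975 and 5 and 5 against 2 and 2 in HCC44, where it fell by 1.00 on the log2 scale (SE 0.25, limma adjusted p 0.0086). NR2F1 (chr5:93583222-93594611), for COUP-TFI, had 6 and 6 against 4 and 4, and 5 and 5 against 4 and 4; the replicates were tied and the groups apart, without a call. NR2F6 had 10 and 10 against 8 and 8, and 10 and 10 against 8 and 7, and NR2C2 5, 4, 4 and 4, then 6, 5, 5 and 5. NR2E1, a regulator of neural stem cells, had 3, 4, 3 and 2, then 5, 6, 5 and 4, and the photoreceptor gene NR2E3 2, 2, 2 and 0, then 2, 3, 1 and 1. None of NR2C2, NR2F6 and NR2E1 was called.

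The NR4A receptors, immediate early genes that are induced by growth signals and take no known classical ligand, gave no call. NR4A1 (chr12:52022832-52059503) had 7, 6, 10 and 5 in H1975 and 10, 9, 6 and 8 in HCC44. NR4A2 had 3, 2, 2 and 2, then 3, 3, 2 and 2, and NR4A3 2, 3, 1 and 2, then 3, 2, 1 and 2. In H1975 the treated and untreated samples overlapped or touched for all 3 genes. In HCC44 they touched for NR4A3. For NR4A1 and NR4A2 both HCC44 ACBI1 samples lay below both DMSO samples, as in 54.5% of all genes.

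NR5A2 (gene ID 2494, chr1:200027710-200177415), the liver receptor homologue, had 4 and 5 against 2 and 2 in H1975 (−0.87, SE 0.29, limma adjusted p 0.0429) and 7 and 7 against 1 and 0 in HCC44 (−2.50, SE 0.29, limma adjusted p 0.000131). HCC44 thus went from more peaks than H1975 to fewer. The HCC44 call held in all 20 alternatives, the H1975 call in 12 of 20. NR6A1 (chr9:124517275-124771311), the germ cell nuclear factor gene, had 14 and 14 against 9 and 6 in H1975 (−0.84, SE 0.15, limma adjusted p 0.00274) and 16 and 14 against 9 and 9 in HCC44 (−0.68, SE 0.15, limma adjusted p 0.00497). NR5A1 (chr9:124481236-124507399), the steroidogenic factor gene next to it, had 3, 2, 2 and 0, then 3, 2, 1 and 1, and shares part of its window with NR6A1. The NR0B genes encode receptors without the DNA-binding domain that act as corepressors. NR0B2 (chr1:26911489-26913975) had 6, 7, 6 and 7 in H1975 and 7 and 8 against 4 and 4 in HCC44 (−0.76, SE 0.18, limma adjusted p 0.00624), and NR0B1 (chrX:30304206-30309390) had 1 in each H1975 sample and 1, 2, 0 and 0 in HCC44.

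**Figure D3:**
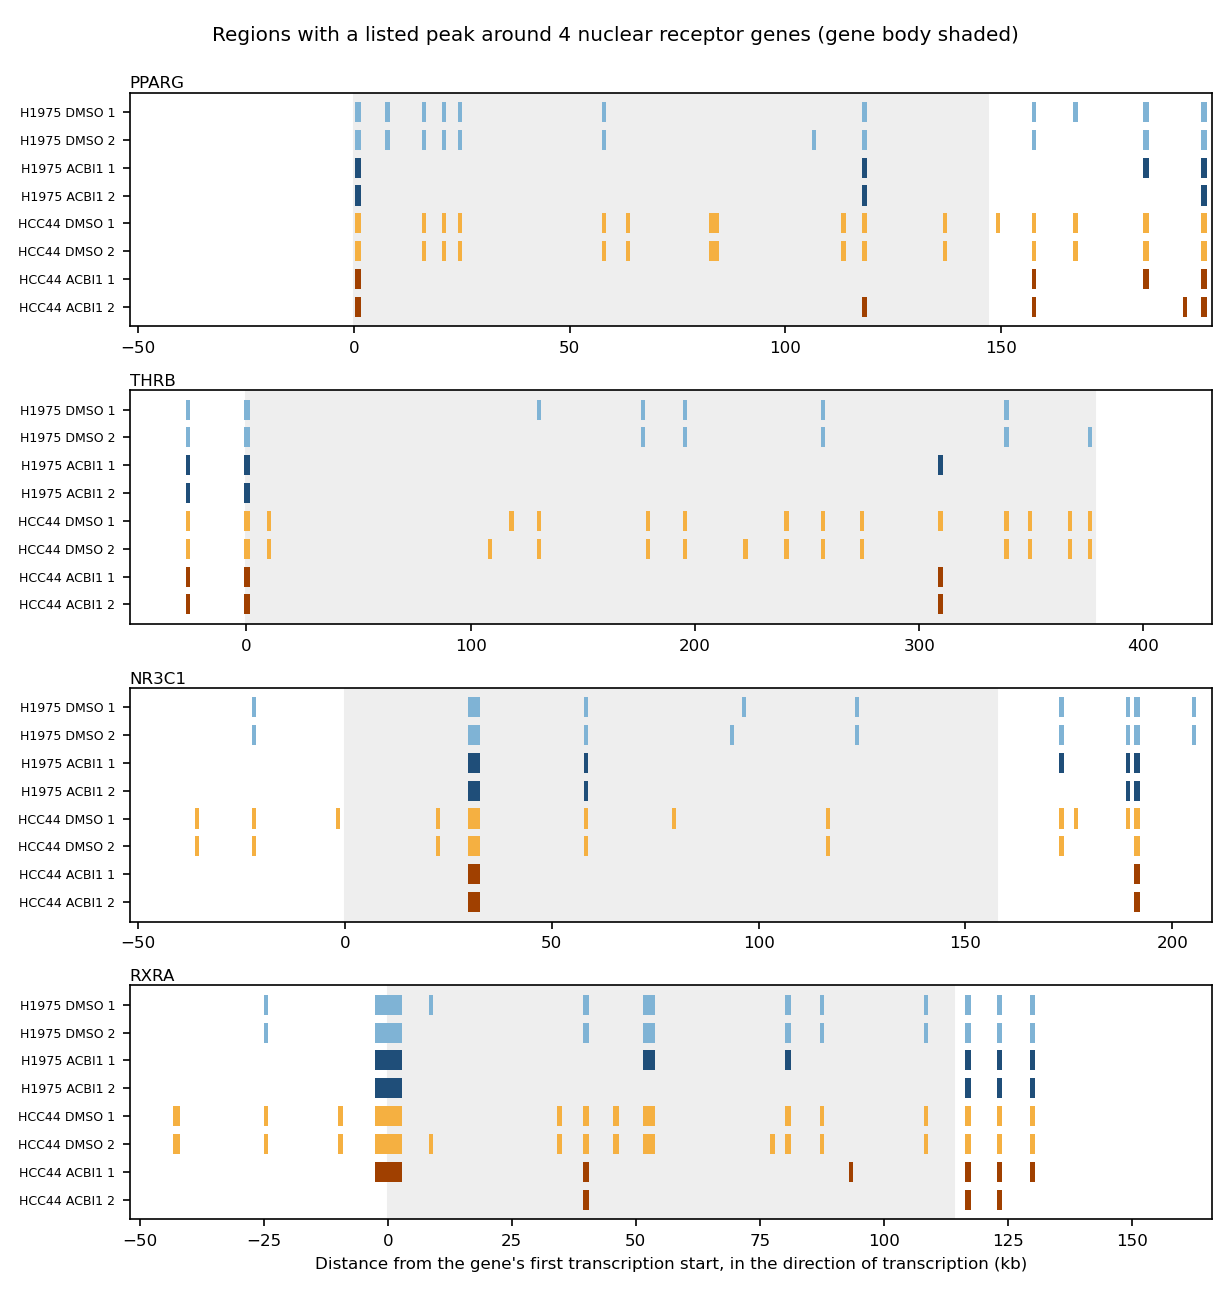
Merged regions that hold a listed peak are drawn as bars for each of the 8 samples (rows) along PPARG, THRB, NR3C1 and RXRA, by distance in kb from the gene's first transcription start; the gene body is shaded and bars narrower than the line width are widened to be visible. PPARG and THRB keep the region at the start in all 8 samples while most bars within the gene body are missing from the ACBI1 rows, NR3C1's lasting region lies inside the gene, and the region at RXRA's start has no bar in HCC44 ACBI1 replicate 2.

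Between the lines with DMSO, 1 receptor was called higher in HCC44 and 1 lower, against 8.19% and 3.36% of all genes tested. THRB was higher by 1.10 (SE 0.21, limma adjusted p 0.00749) and ESRRB lower by a log2 change of −1.16 (SE 0.29, limma adjusted p 0.0252). RORA had a larger difference than THRB, 1.18, but a wider SE of 0.36 (limma adjusted p 0.0613). Without a model, 16 receptors (35.6%) had more peaks in both HCC44 DMSO samples than in both H1975 DMSO samples, against 32.1% of all genes, and 5 (11.1%: RARG, PPARA, NR1H2, ESRRB and NR2F1) had fewer, against 15.2%. With ACBI1, 2 receptors were called lower in HCC44 and 0 higher, against 6.12% and 4.85% of genes: NR3C1 (−0.87, SE 0.20, limma adjusted p 0.0179) and NR5A2 (−1.08, SE 0.29, limma adjusted p 0.0347). The call of THRB held in 19 of 21 alternatives, that of ESRRB in 10 of 17, that of NR3C1 in 19 of 21 and that of NR5A2 in 13 of 20. Leaving out H1975 ACBI1 replicate 1 or 2 raised the number called higher in HCC44 with DMSO to 10, while that of all genes rose to 20.7% in either case. Leaving out replicate 1 raised the number with ACBI1 to 11, beside 16.7% of all genes.

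Whether the response to ACBI1 differed between lines was tested as the difference of the 2 changes. limma called 0 of the 34 receptors and 0.00% of genes lower and 0.00% higher in HCC44 than in H1975. An unadjusted p under 0.05 was found for 6 receptors and for 1503 of the 12696 genes. limma's default prior called 1 receptor higher, NR2F1, beside 379 genes higher and 817 lower. The largest differences were 1.66 for ESRRB (SE 0.40, limma adjusted p 0.174), −1.63 for NR5A2 (SE 0.41, limma adjusted p 0.18) and −0.98 for NR3C1 (SE 0.28, limma adjusted p 0.201). ESRRB was called lower in H1975 and had a change of 0.50 without a call in HCC44, whereas NR5A2 and NR3C1 were called lower in both lines. With H1975 ACBI1 replicate 2 left out, 5 receptors were called lower and 1 higher, beside 10.8% and 0.945% of genes; with replicate 1 left out, 3 and 2, beside 3.58% and 3.55%.

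Boundary peaks were steadier than surrounding ones. In all 8 samples 22 of the 45 receptors had at least 1 (48.9%, all genes 52.8%), 17 had none in any (37.8%, all genes 32.8%) and 6 had one in some samples. The 22 were THRA, THRB, RARG, HNF4G, PPARA, PPARD, PPARG, NR1H2, NR1H3, VDR, NR1D1, NR1D2, ESR2, ESRRA, NR2C1, NR2C2, NR2F2, NR2F6, NR4A1, NR4A2, NR4A3 and NR6A1. The 17 were RARB, RXRG, HNF4A, NR1H4, NR1I2, NR1I3, RORA, RORB, ESR1, PGR, NR3C1, NR3C2, ESRRB, ESRRG, NR2E1, NR2E3 and NR5A2. Both H1975 DMSO samples listed a boundary peak for 24 receptors, and all 24 kept it in both ACBI1 samples, 0 losing it in both against 2.52% of all such genes. In HCC44, 25 of 26 kept it and 1, RXRA, lost it (3.85%), against 5.53% of genes. RXRA had 2 and 1 boundary peaks in HCC44 DMSO and 0 and 0 in HCC44 ACBI1; a peak of ACBI1 replicate 1 lay in the same merged region, more than 1 kb from the gene end.

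Lines differed at the ends of 4 genes. RARA, NR5A1 and NR0B1 had a boundary peak in the HCC44 DMSO samples, replicates 1 and 2 alike, but not in those of H1975, as did 3.85% of all genes. NR2F1 was the reverse, with 1, 2, 1 and 1 boundary peaks in H1975 and 0 in HCC44, as were 2.75% of genes. All 4 kept this pattern with ACBI1. NR5A1's boundary peak lay at the end away from its RefSeq start, chr9:124507399, where no sample had a peak within 1 kb. For RARA the difference concerned both ends of the gene. Each HCC44 sample had 2 boundary peaks, of which 1 lay at the first start and the other at the opposite end. RARA's starts inside the gene, at chr17:40318245 and chr17:40342166, had a peak within 1 kb in all 8 samples. NR0B2 had a single boundary peak in H1975 DMSO replicate 2. RORB (chr9:74497335-74693177), the retinal and neural ROR, and PGR had 0 peaks of either kind in all 8 samples. No list used here held a peak between chr9:73869581 and 74760260 around RORB, or between chr11:100930346 and 101429033 around PGR.

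Single transcription starts were followed as well. RefSeq gave 67 sites for the 40 receptors, a site being starts within 2 kb of each other and its peaks those within 1 kb. A peak was listed in all 8 samples at 22 sites, in some at 11 and in none at 34. In H1975, 26 sites had a peak in both DMSO samples, of which 24 kept it, 0 lost it in both ACBI1 samples (all genes 2.44%) and 2, of NR4A1 and RXRA, kept it in 1. HCC44 had 32 such sites, of which 26 kept the peak and 5 lost it (15.6%, all genes 5.06%): 1 each of NR2F2, NR4A1 and PPARG and both sites of RXRA. NR3C1 and NR3C2, which had no boundary peak, had a peak in all 8 samples at their second site. Sites with a peak in all 4 HCC44 samples and in no H1975 sample were the third of RARB, the second of NR2E1, the first of RARA and that of NR0B1. The first site of NR2F1 was the reverse, with a peak in all 4 H1975 samples and in no HCC44 sample. These sites were not set beside those of all genes.

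**Figure D4:**
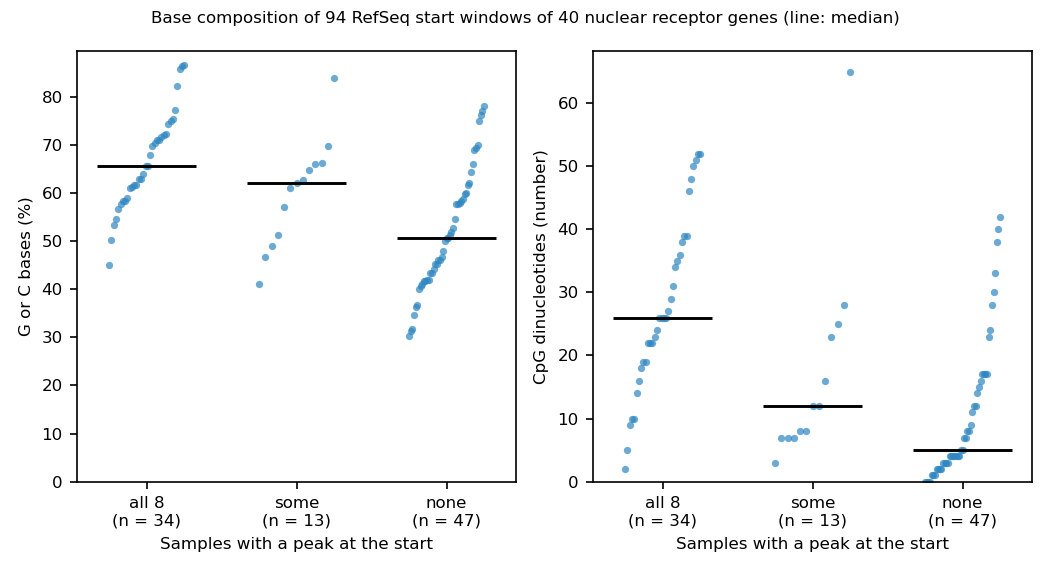
Each point is 1 of 94 RefSeq start windows of 300 bases, 250 before and 50 after the start, grouped by the number of samples with a peak within 1 kb of the start; the left axis gives the percentage of G or C bases, the right axis the number of CpG dinucleotides, and black lines are medians. Windows with a peak in all 8 samples have medians of 65.7% and 26, those without a peak 50.7% and 5.

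Base composition differed between starts with and without a peak. The 34 windows with a peak in all 8 samples had a median of 65.7% G or C bases and 26 CpG dinucleotides, the 13 with a peak in some samples 62% and 12, and the 47 without one 50.7% and 5. Over all genes the corresponding medians were 66.3% and 27, 61.7% and 16, and 53.3% and 6. The receptor windows thus had medians close to those of all genes in each class, and windows of the same gene can overlap.

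Surrounding peaks near other genes behaved differently from the rest. Of the distinct surrounding peaks, 48 and 48 overlapped the end of another protein-coding gene in H1975 DMSO, and 47 and 47 in H1975 ACBI1; HCC44 had 54 and 54 against 47 and 48. The others, at no gene end, numbered 181 and 169 against 109 and 73 in H1975, a log2 change of −0.97 (SD between replicates 0.293), and 211 and 206 against 106 and 89 in HCC44, a change of −1.10 (SD 0.127). For peaks of all genes at no gene end the changes were −1.06 (SD 0.253) and −1.26 (SD 0.0614). The distance between the receptors' changes and those of all genes was under the SD between receptor replicates in H1975 and over it in HCC44, and it was not tested. In H1975 the counts at other genes' ends differed little (a log2 change of −0.03), and in HCC44 they were lower with ACBI1 (−0.19).

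This split and gene length both went with which receptors were called. Among the 11 called lower in both lines, a median of 10.3% of DMSO surrounding peaks lay at other genes' ends and the median gene length was 147 kb. Among the 9 called in 1 line these were 18.2% and 53.4 kb, and among the 14 called in neither 40.7% and 18.4 kb. Over all genes tested the values were 10.3% and 74.4 kb, 23.5% and 33 kb, and 42.9% and 16.4 kb. Across the 34 receptors the share correlated with the log2 change at Pearson's r 0.63 and Spearman's rho 0.61 in H1975 and 0.52 and 0.48 in HCC44. Over the 12696 genes r was 0.50 and 0.52. For gene length the receptors' r and rho were −0.51 and −0.73 in H1975 and −0.44 and −0.52 in HCC44. Over all genes tested, r for length was −0.36 and −0.37. The share and the length were not told apart by a test. These are descriptions across genes of the same 8 lists, and genes are not independent replicates. Both ends of the range of shares held exceptions. Of the 11 receptors with 0% at other genes' ends, 5 were called lower in both lines (THRB, RXRA, PPARG, ESR1 and NR5A2), 2 in 1 line (ESRRB and NR2F2) and 4 in neither (RXRG, NR2E1, NR2F1 and NR4A2). Of the 7 with at least 50%, a limit set after the values were seen, 2 were called in 1 line (RARG and NR0B2) and 5 in neither (HNF4A, NR1H2, NR1D1, NR2C2 and NR2F6).

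**Figure D5:**
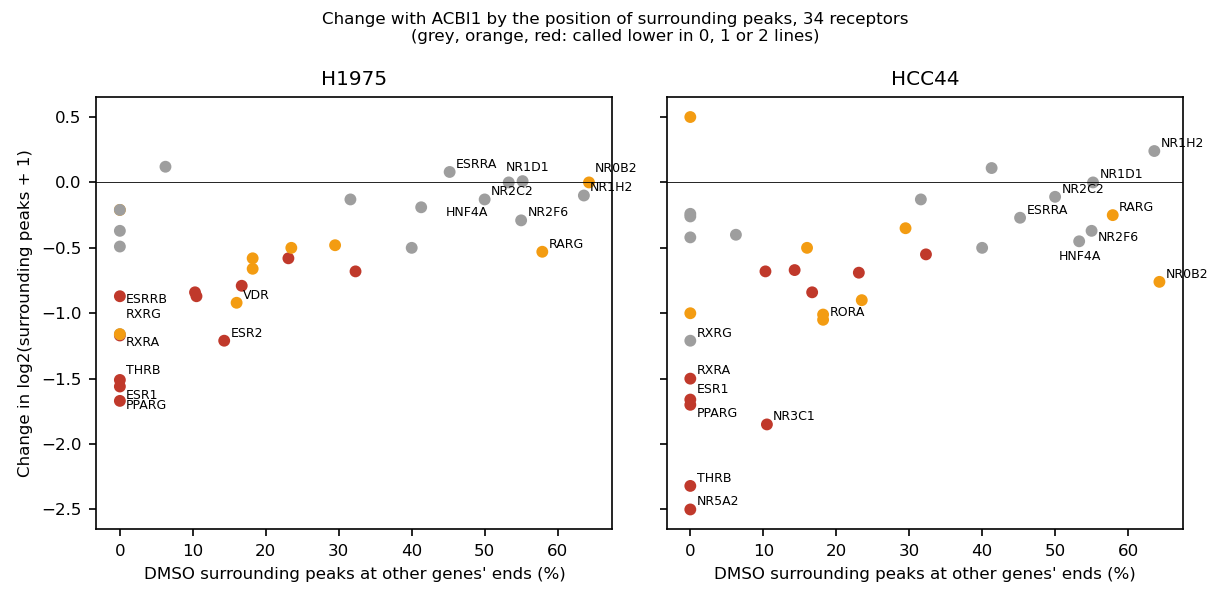
For each of the 34 receptors tested, the horizontal axis gives the percentage of its DMSO surrounding peaks that overlap another gene's end and the vertical axis the change in log2(surrounding peaks + 1) with ACBI1, in H1975 (left) and HCC44 (right). Grey, orange and red points were called lower in 0, 1 and 2 lines; the points rise from left to right, with correlations of 0.63 and 0.52.

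Merged over the samples of a line, the regions around receptors were followed one by one. Of 197 surrounding regions with a peak in both H1975 DMSO samples, 67 (34.0%) had none in either ACBI1 sample and 106 kept one in both. In HCC44, 113 of 236 (47.9%) were lost and 105 retained. For regions at no gene end the losses were 66 of 150 (44.0%, all genes 48.2%) and 106 of 184 (57.6%, all genes 60.7%). Retained there were 62 (41.3%, all genes 37.9%) and 60 (32.6%, all genes 32.0%). At another gene's end the losses were 1 of 47 (2.13%) and 7 of 52 (13.5%). Of boundary regions of all genes, 4.23% and 8.73% were lost. Regions present in both ACBI1 samples and in neither DMSO sample numbered 4 in H1975 and 12 in HCC44. Leaving out H1975 ACBI1 replicate 2 raised the 4 to 18, and leaving out HCC44 DMSO replicate 1 or ACBI1 replicate 2 raised the 12 to 19 and 20. Of 110 regions at no gene end with a peak in all 4 DMSO samples, 36 (32.7%, all genes 35.6%) were lost in both lines, 38 (34.5%, all genes 32.8%) were retained in both, 2 (1.82%, all genes 2.32%) were lost in H1975 and retained in HCC44, and 9 (8.18%, all genes 8.68%) the reverse. The other 25 had a peak in 1 ACBI1 sample of at least 1 line.

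The lost regions with the highest ranks of the authors' fold enrichment within their lists were these. In H1975 the first was chr15:71761739-71762010, 48544 bases outside NR2E3, with values of 11 and 10.8 in DMSO replicates 1 and 2. The next was chr3:12345192-12345522, inside PPARG and 6.06 kb from its nearest start, with 11.3 and 10.6. The third was chr14:64280256-64280583, inside ESR2, with 10.3 and 11. In HCC44 they were chr6:152136230-152136684, 6611 bases outside ESR1 (8.54 and 8.01), chr5:93563905-93564463, 18759 bases from NR2F1 (8.04 and 7.54), and chr6:152054462-152054856, inside ESR1 (8.04 and 7.53). All 6 stood at percentiles between 94.1 and 98.6 of the fold enrichment in their lists. Gained regions chosen by the same rule stood at percentiles between 2.41 and 82.7 of their ACBI1 lists, and since few regions were gained they are not compared with the lost ones. Of the 4 in H1975 these were chr3:15051628-15052005, 2355 bases from NR2C2 (6.1 and 7.92), and chr12:53213406-53213866 inside RARG (3.78 and 4.76). The third was chr6:35473994-35474965, 45816 bases from PPARD (3.01 and 3.38). In HCC44 they were chr9:124711882-124712409 inside NR6A1 (6.06 and 5.59) and chr6:151648122-151648599, 8073 bases from ESR1 (6.03 and 5.13). The third there was chr6:35327393-35328101, 14457 bases from PPARD (4.75 and 4.69). Exon and intron positions within these genes were not analysed here.

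Genes that work with the receptors were counted in the same fit. Of 18 coregulator genes, 16 were tested. In H1975, 10 were called lower (62.5%, all genes 29.5%) and in HCC44 11 (68.8%, all genes 43.1%), with 0 higher. Median changes were −0.75 and −0.89, beside −0.37 and −0.50 over all genes tested. PPARGC1B, a coactivator of mitochondrial programmes, went from a mean of 5 to 0.5 surrounding peaks in H1975 (−2.08, SE 0.29, limma adjusted p 0.000821) and from 7 to 2 in HCC44 (−1.40, SE 0.29). NCOA3, a p160 coactivator, went from 7 to 1 in HCC44 (−1.99, SE 0.22, limma adjusted p 0.000116), and CREBBP, a histone acetyltransferase, from 6.5 to 2 in H1975 (−1.32, SE 0.22) and from 8 to 2 in HCC44 (−1.58, SE 0.22). The corepressor gene NCOR1 was called lower by the same change in both lines (−1.11, SE 0.23).

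Of 32 target and metabolism genes, 27 were tested. In H1975, 14 were called lower (51.9%, all genes 29.5%) and in HCC44 16 (59.3%, all genes 43.1%), with 0 higher. Median changes were −0.61 and −0.69, beside −0.37 and −0.50 over all genes tested. BHLHE40, a clock repressor, fell from a mean of 7.5 to 3 in H1975 (−1.08, SE 0.22) and from 6 to 1.5 in HCC44 (−1.51, SE 0.22, limma adjusted p 0.000486). The glucocorticoid target TSC22D3 was called in HCC44 (7.5 to 2.5, −1.29, SE 0.19) and not in H1975 (7.5 to 5.5, limma adjusted p 0.151), a difference of responses that was not called (limma adjusted p 0.237). With ACBI1 it was called lower in HCC44 than in H1975 (−0.90, SE 0.19, limma adjusted p 0.0133). The oxysterol target ABCA1 was called in both (−0.83, SE 0.17, and −0.66, SE 0.17), and ANGPTL4, a fatty acid receptor target, in neither (12 to 12, and 8 to 7.5). On centring, PPARGC1B and CREBBP kept their H1975 calls (limma adjusted p 0.00448 and 0.026). NCOR1, BHLHE40 and ABCA1 lost theirs (limma adjusted p 0.0644, 0.0676 and 0.122). Neither list's share of genes called lower was tested against that of all genes.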

How the data were processed

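The 8 broadPeak lists, 1 per sample, were called by the authors per sample. BWA and hg38 are named in the submitters' processing notes; the peak caller and its filters are not given in the sources used here. The deposited columns used were the fold enrichment, a ratio, and the −log10 q-value, read by the broadPeak layout, since the files have no header; the deposited −log10 p-value columns were not used for results. The lowest −log10 q was between 10 and 10.2 in every list. Both depend on library depth, which is unknown, so they only rank or filter peaks within a list.

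Peaks were counted with Python 3.11.15 and pandas 2.3.3 over RefSeq genes of GRCh38.p14, and tested with limma 3.58.1 in R 4.3.3 (1 fit over 4 groups, mean-variance trend) on log2(surrounding peaks + 1) for 12696 genes with a mean of at least 2. limma's default prior, which the design named, has 0.606 degrees of freedom here with 1196 genes tied within every group. The prior was instead estimated from untied genes (7.17 degrees of freedom), and no gene's variance was taken below the mean at its level in 20 bins. This choice was made after the data had been seen. Regions are peaks of a line merged at any overlap. Replicate numbers did not pair the samples. The alternatives are given in the closing section.

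The genes with full values followed a rule: the 8 receptors with the largest differences with treatment in each line, the 6 with the largest between lines, those whose boundary peaks differed, and those without peaks; other receptors are given too. The receptors, their role groups, the coregulator, target and marker lists and the named sequences were chosen with earlier results of these data known. One marker of the fixed list is not reported here.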

Additional observations from a re-analysis of the deposited data

How the results depend on the processing

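Calls depend on how the shorter ACBI1 lists are treated, and depth in reads is unknown, so a weak site can be missing from a list. Over 25 summary results, 139 of 197 values under other settings moved by less than 1.5 times or 1 SD, 56 by more, and 2 changed sign; of 434 values of single receptor calls, 321 kept their call, 100 lost it and 13 changed sign. The cause of these changes was not tested, except that equal list lengths remove the difference in number by construction.

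Receptors called lower in H1975 (15, beside 3742 of 12696 genes) numbered 3 with a minimum fold enrichment of 5 (524 of 9445 genes). They numbered 2 with equal numbers of top peaks (493 of 9226) and 5 in covered kb (2253 of 12696). Median centring gave 4 (1007 of 12696). Those called higher (0) numbered 6 with equal top peaks, beside 1504 of 9226 genes. In HCC44, 16 lower (5475 of 12696 genes) became 5 with equal top peaks (842 of 9226) and 6 on centring (1122 of 12696). There, 0 higher (21 of 12696) became 5 with equal top peaks (2256 of 9226) and 11 on centring (3750 of 12696). Between lines with DMSO, the 1 called lower in HCC44 (427 of 12696 genes) became 2 on centring (920 of 12696). With equal top peaks it became 3 (1671 of 9226). It became 0 with a fold enrichment of 5 (167 of 9445) or boundaries of 5 kb (375 of 11964). Windows of 25 kb (242 of 8731) or 100 kb (591 of 15858) also gave 0. So did a pseudocount of 0.5 (288 of 12696) and covered kb (320 of 12696). The 1 called higher (1040 of 12696 genes) became 0 with a −log10 q of 20 (414 of 10891). A fold enrichment of 5 also gave 0 (29 of 9445). It became 2 with equal top peaks (904 of 9226) or without the filter on low counts (1810 of 19974). With 25 kb windows (571 of 8731) or limma's default prior (1694 of 12696) it became 3. Covered kb gave 11 (2656 of 12696). With ACBI1, the 2 called lower (777 of 12696 genes) became 4 with a −log10 q of 20 (1567 of 10891). With a fold enrichment of 5 they became 11 (3470 of 9445). They became 1 with 100 kb windows (983 of 15858) or 5 kb boundaries (679 of 11964). A pseudocount of 0.5 (628 of 12696) or centring (583 of 12696) also gave 1, and covered kb 0 (383 of 12696). The 0 called higher (616 of 12696) became 1 with a −log10 q of 20 (223 of 10891). Equal top peaks (535 of 9226) or 100 kb windows (880 of 15858) also gave 1. Covered kb gave 4 (790 of 12696) and centring 5 (1343 of 12696). For the difference of responses, equal top peaks gave 1 lower (340 of 9226 genes) and limma's default prior 1 higher (379 of 12696).

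Replicate numbers were used as a replicate block once: correlations of same-numbered deviations lay between −0.0114 and 0.101. The block gave 4 receptors higher in HCC44 with DMSO (1688 of 12696 genes) and 4 with ACBI1 (1109 of 12696). In response it gave 1 lower (221 of 12696) and 1 higher (40 of 12696). It moved no other count by over 1.5 times.

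Receptors whose groups did not overlap numbered 7 below and 11 above DMSO in H1975 with equal top peaks (12% and 21.7% of all genes). In HCC44 they numbered 10 and 14 (14.0% and 27.7%). A fold enrichment of 5 or 25 kb windows gave 1 above in H1975 (1.41% and 1.43% of all genes). The 19 at the smallest exact permutation p became 8 with equal top peaks (17.8%, all genes 17.2%). Kept boundary peaks became 13 of 14 in H1975 and 5 of 7 in HCC44 with a fold enrichment of 5, and 16 of 16 in HCC44 with equal top peaks. The summed log2 change became 0.09 in H1975 and 0.07 in HCC44 with equal top peaks, and in HCC44 −1.17 with a −log10 q of 20, −1.69 with a fold enrichment of 5, −1.01 with 25 kb and −0.77 with 100 kb windows.

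Changes of sign with equal top peaks were 1.00 for THRB, 0.63 for RARA, 0.21 for RARG, 0.29 for PPARA and 1.29 for VDR in H1975, and 0.24 for RARA, 0.16 for PPARA and 0.30 for NR6A1 in HCC44. On centring they were 0.11 for RARA, 0.26 for PPARA, 0.14 for ESR2, 0.13 for NR6A1 and 0.04 for NR0B2 in HCC44.

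With 1 sample left out, between 10 and 20 receptors were called lower in H1975 and between 13 and 21 in HCC44, and 0 to 1 and 0 higher. Between lines they ranged from 0 to 2 lower and 1 to 10 higher with DMSO, from 1 to 5 and 0 to 11 with ACBI1, and from 0 to 5 and 0 to 2 for the difference of responses. Groups that did not overlap ranged from 22 to 31 below and 0 to 2 above in H1975, and 33 to 35 and 0 to 2 in HCC44. Kept boundary peaks stayed at 24 and 25, and summed log2 changes ranged from −0.89 to −0.51 and −0.94 to −0.78. Gained regions numbered 4 to 18 in H1975, 15 to 20 for HCC44; lost ones ranged from 69 to 92 and 117 to 132, and retained from 107 to 128 and 108 to 120.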

Other observations

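For the 22 receptor genes with a boundary peak in every sample, the boundary peak of highest −log10 q stood at a median percentile of 63.2 to 80.9 by −log10 q within a list, and of 23 to 40.5 by fold enrichment. Over the 10554 genes with a boundary peak in every sample these medians were 74.4 to 83.4 and 41.8 to 64.9. The percentile by −log10 q was the higher one for 18 to 20 of the 22 receptors, depending on the list, and for 63.3% to 87.7% of those genes. NR2C1 was among the exceptions, with percentiles of 76.4 by −log10 q and 96.6 by fold enrichment in H1975 DMSO replicate 1. By −log10 q, 17 to 19 of the 22 stood above the middle of their list. HNF4G had the lowest of the 22 in H1975 DMSO replicate 1, at percentile 25.5, and in H1975 ACBI1 replicate 2, at 0.28. NR2F2 was lowest in 4 of the 8 lists.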
